A study of Mus musculus with 11 samples.

Results

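In the acute Ctrl library of mouse embryonic stem cells (mESC), a stretch of chromosome 12 that holds Spata7, Ptpn21, Zc3h14, Eml5 and Ttc8 was read 1.25-fold more deeply than in the median of the other 10 libraries. The stretch was taken as the bins of about 50 kb whose midpoints lie in a set interval of chromosome 12, which gave the 14 bins from 98413565 to 99114065 (mm10), of 52958 bins in each library. The 5 genes are 5 of the 20807 protein-coding autosomal genes of the annotation, and Kcnk10 also lies in the stretch. Both the stretch and the library set against the others were chosen by the measured depth of acute Ctrl over that of the other libraries, so the difference between acute Ctrl and the other libraries is given as a description, without a test. The other comparisons below, among libraries that the choice did not single out, carry tests where replicates allow.

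Low-coverage whole-genome sequencing of bulk DNA had been done to look for gained or lost chromosome segments, and the 11 libraries used here fall into 7 groups. The Ctrl genotype combines Cre/ERT2, a Cre recombinase that tamoxifen activates, with the Rosa26-LSL-H2b-Egfp reporter, which Cre switches on. Tet iTKO cells carry both of these and floxed Tet1, Tet2 and Tet3, so that Cre deletes the genes of the TET dioxygenases, which oxidise 5-methylcytosine. Dnmt TKO is a knockout of Dnmt1, Dnmt3a and Dnmt3b, the genes of the enzymes that methylate cytosine, and is not inducible. Ctrl and Tet iTKO each gave 1 pre-treatment library, 1 acute library (tamoxifen at 1 µM for 2.5 days and then 4 days of culture) and 3 long-term libraries from monoclonal populations kept for 30 days in culture, and Dnmt TKO gave 1 library grouped with the long-term cells. All cells were grown with 2i inhibitors on mouse embryonic fibroblast feeders and sorted as live, CD326-positive and Thy1.2-negative cells. The Ctrl and Tet iTKO protocol also names a GFP-positive gate. Since Cre switches the reporter on and the pre-treatment cells are labelled as not activated, that gate cannot be assumed for the pre-treatment libraries. A monoclonal population shows the copy number of the cell it grew from, whereas the acute and pre-treatment libraries average over a mixed population.

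Read depth follows the number of DNA copies, so a duplicated segment raises the depth of every gene within it in proportion to the share of cells that carry it. In mESC kept in culture, gains of whole chromosomes or of segments are a known form of genome drift. The 5 genes have no common pathway. Spata7 and Ttc8 both act at cilia: SPATA7 sits in the connecting cilium of photoreceptors, and TTC8 (also called BBS8) is a subunit of the BBSome, the coat complex that moves membrane proteins into and out of cilia. EML5 belongs to the EMAP-like microtubule-associated proteins, PTPN21 is a cytoplasmic tyrosine phosphatase with a FERM domain, and ZC3H14 is a zinc finger protein that binds poly(A) RNA. KCNK10 is a potassium leak channel of the membrane.

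Promoter sequences from RefSeq (GRCm38.p6, the assembly that mm10 copies) were matched for all 5 genes. They are shown 5′ to 3′ in the direction of the gene for 3 of them, with CpG dinucleotides in capitals, since CpG is where the deleted enzymes of this series act and since base composition can affect read depth. Spata7 and Ttc8 are the first and last of the 5 genes along the chromosome, and Ptpn21 has the promoter richest in CpG.
Spata7, chr12:98627892-98628191, plus strand: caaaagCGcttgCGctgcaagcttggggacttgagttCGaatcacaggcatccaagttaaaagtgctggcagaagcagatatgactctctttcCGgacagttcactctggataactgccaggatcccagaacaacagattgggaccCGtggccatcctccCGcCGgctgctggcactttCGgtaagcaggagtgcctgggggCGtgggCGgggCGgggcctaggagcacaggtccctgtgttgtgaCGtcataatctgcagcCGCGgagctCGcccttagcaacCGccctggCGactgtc
Ptpn21, chr12:98737356-98737655, minus strand: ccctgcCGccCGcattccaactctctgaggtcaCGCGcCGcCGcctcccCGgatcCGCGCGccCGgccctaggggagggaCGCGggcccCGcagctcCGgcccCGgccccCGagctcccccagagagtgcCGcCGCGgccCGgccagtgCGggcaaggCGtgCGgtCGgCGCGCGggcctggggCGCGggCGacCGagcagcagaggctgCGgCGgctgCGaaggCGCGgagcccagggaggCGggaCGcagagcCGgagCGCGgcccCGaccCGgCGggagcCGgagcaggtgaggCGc
Ttc8, chr12:98920324-98920623, plus strand: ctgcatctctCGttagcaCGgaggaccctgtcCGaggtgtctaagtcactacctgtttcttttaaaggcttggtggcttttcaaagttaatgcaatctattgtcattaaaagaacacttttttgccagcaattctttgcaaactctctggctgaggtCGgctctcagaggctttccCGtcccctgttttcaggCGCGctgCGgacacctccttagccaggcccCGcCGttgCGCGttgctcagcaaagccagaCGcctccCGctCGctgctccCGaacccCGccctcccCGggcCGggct
Each runs over 300 bases, from 250 before the transcription start to 50 after it. The Spata7 promoter held 17 CpG, a number reached by 31.4% of the 32851 promoters of the table, and the Ttc8 promoter held 19, reached by 28.1%. The Ptpn21 promoter held 47 CpG, which 1.44% of all promoters reached. Its second listed promoter held 18, the Eml5 promoter held 25, and the listed Zc3h14 promoter, which starts inside the gene, held 1, against a median of 7 over all promoters. Apart from that Zc3h14 entry, the listed promoters thus held 17 to 47 CpG, above the median. The bins of the stretch all lay between 38.6% and 45.1% GC.

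The 11 libraries held between 555 and 812 Mb of mapped bases each, equal to 215 to 315 reads of 50 bases in the median autosomal bin, and acute Ctrl lay within this range with 646 Mb. The Y chromosome was read at 0.0269 to 0.0381 of the autosomal median in the 4 pre-treatment and acute libraries and at 0.457 to 0.558 in the 7 long-term libraries, with the X at 0.560 to 0.592 in all 11, so stage and line of origin cannot be told apart between these sets. Acute Ctrl and the pre-treatment library it is compared with lay on the same side of that split. With this difference in the Y, the long-term libraries are not read as later samples of the sequenced early populations. Bins of 50 kb are too wide to check the floxed exons: Tet1 was read at 1.01 to 1.13 in the 4 Tet iTKO libraries taken after tamoxifen and at 1.09 to 1.21 in the 5 Ctrl libraries, and the ranges also overlapped for Tet2 and Tet3. In Dnmt TKO, Dnmt1 was read at 0.991, Dnmt3a at 1.02 and Dnmt3b at 0.984. The 5 Ctrl libraries ran from 1.04 to 1.15 for Dnmt1, 0.944 to 1.05 for Dnmt3a and 1.04 to 1.14 for Dnmt3b. Dnmt TKO is 1 library, with the widest spread over all bins (SD 0.196). How many other genes lie below all Ctrl libraries there was not counted, so these values do not show the deletions. Dnmt TKO and the long-term Tet iTKO library 2 carry large copy changes elsewhere in the genome, and values without them are given where they bear on the stretch.

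Relative depth is the depth of a bin, or the length-weighted mean over bins, divided by the median depth of the library's autosomal bins, so that 1 is the level of an ordinary autosomal bin. Over the whole stretch, acute Ctrl stood at 1.33, from 4755 reads (95% Poisson interval 1.30 to 1.37, which covers counting error only). The pre-treatment Ctrl library stood at 1.08, and the 3 long-term Ctrl libraries at 1.07, 1.07 and 1.04. The Tet iTKO libraries stood at 1.07 before treatment, at 1.08 in the acute library and at 1.06, 1.10 and 1.09 in the long-term libraries, and Dnmt TKO stood at 1.06. Acute Ctrl was therefore the single high library, and the other 10 lay between 1.04 and 1.10, with a mean of 1.07 ± 0.0169 (SD, n = 10) and a median of 1.07. On the log2 scale acute Ctrl exceeded the median of the other 10 by 0.32.

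The flanks of 2 Mb on each side held 40 bins each and did not share the difference. In the left flank acute Ctrl stood at 0.943, between the lowest (0.915) and the highest (0.963) of the other libraries. In the right flank it stood at 1.06, again within the range of the other libraries (1.04 to 1.08). Of the single bins, 1 of 40 on the left and 0 of 40 on the right had a log2 difference of 0.25 or more, beside 0.449% of all autosomal bins in this library. The stretch had a mean GC content of 42.6%, between the left flank (38.6%) and the right flank (45.3%), and correcting depth for GC left the log2 difference of the stretch at 0.32. Repeats covered 27.2% of the stretch on average, 35.0% of the left flank and 24.8% of the right flank.

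**Figure D1:**
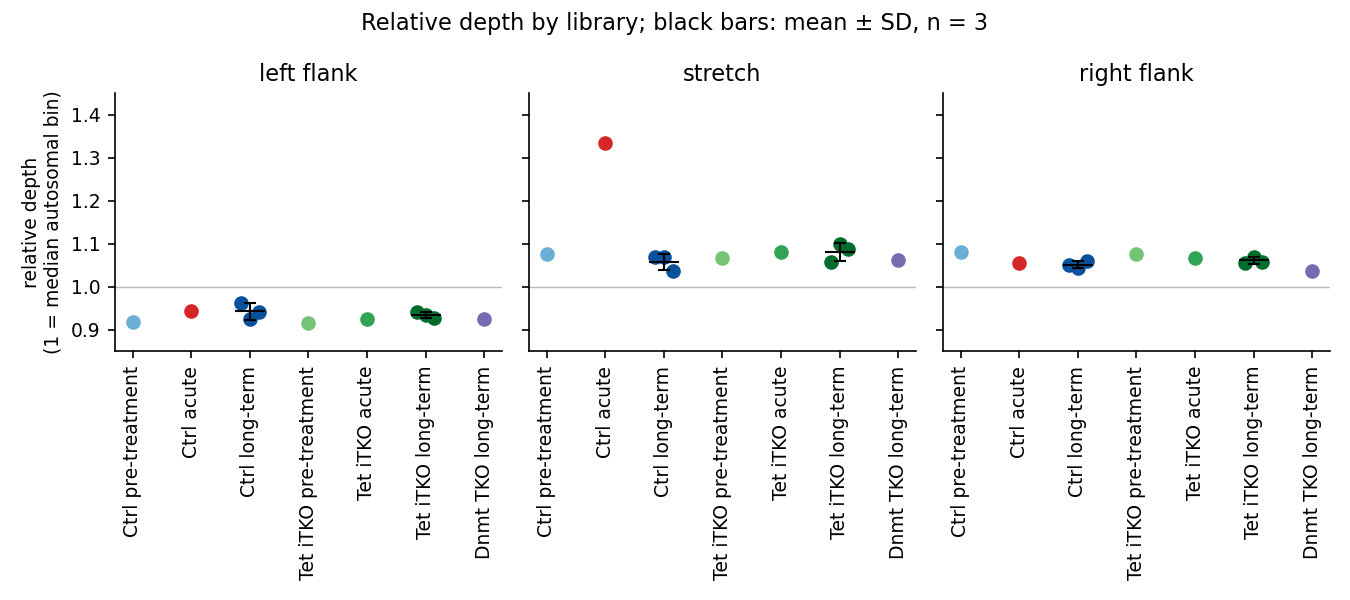
Relative depth of the left flank, the stretch and the right flank (vertical axis, from 0.85; 1 is the median autosomal bin) in the 11 libraries by group, with a point per library and the mean ± SD for the groups with 3. Acute Ctrl stands at 1.33 in the stretch, above the 1.04 to 1.10 of the other libraries, and within their range in both flanks.

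A single extra copy of a segment in every diploid cell would give a fold of 1.5, or 0.58 on the log2 scale. The fold of 1.25 over the 14 bins is what an extra copy in 49.5% of diploid cells would give, and the mean over the raised segment fitted below (0.35 on the log2 scale), which leaves out the last bins, is what 54.8% would give. In bulk DNA, more copies in fewer cells and fewer copies in more cells cannot be told apart, and the cells were not examined singly here. Whether a gain of copies gave the higher depth was not tested.

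Along the stretch, acute Ctrl was raised over most bins and returned to the level of the other libraries on both sides. In 10 of the 14 bins its log2 difference from the median of the other 10 libraries reached 0.25, a level that 0.449% of the 47708 autosomal bins of ordinary depth reached in this library. In 12 of the 14 bins acute Ctrl was higher than every other library, against 8.4% of all bins. These shares are part of what singled the stretch out and are not read further. The bins of acute Ctrl held 266 to 409 reads each, and the SD of the log2 difference over all bins of this library was 0.0999, so a single bin is a noisy measure.

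Taken in order from the left, the first pair of bins, which hold the left part of Kcnk10 and some sequence before it, had log2 differences of 0.24 and 0.17. The next pair stood at 0.41, inside Kcnk10, and 0.62, in a bin that lies mostly past the right end of Kcnk10. This last bin was the highest of the stretch, with a relative depth of 1.59 in acute Ctrl and at most 1.17 in the others. The bin of Spata7 followed at 0.35, and the bin that Spata7 shares with Ptpn21 at 0.29. The bin of Ptpn21 and Zc3h14 stood at 0.33, and that of Zc3h14 and Eml5 at 0.30. The remaining bins of Eml5 stood at 0.45 and 0.37, and those of Ttc8 at 0.35 and 0.30. Past Ttc8 the difference fell away: the last bins of the stretch, which hold no protein-coding gene, stood at 0.15 and 0.042. The bins directly outside the stretch stood at 0.027 on the left and 0.029 on the right.

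**Figure D2:**
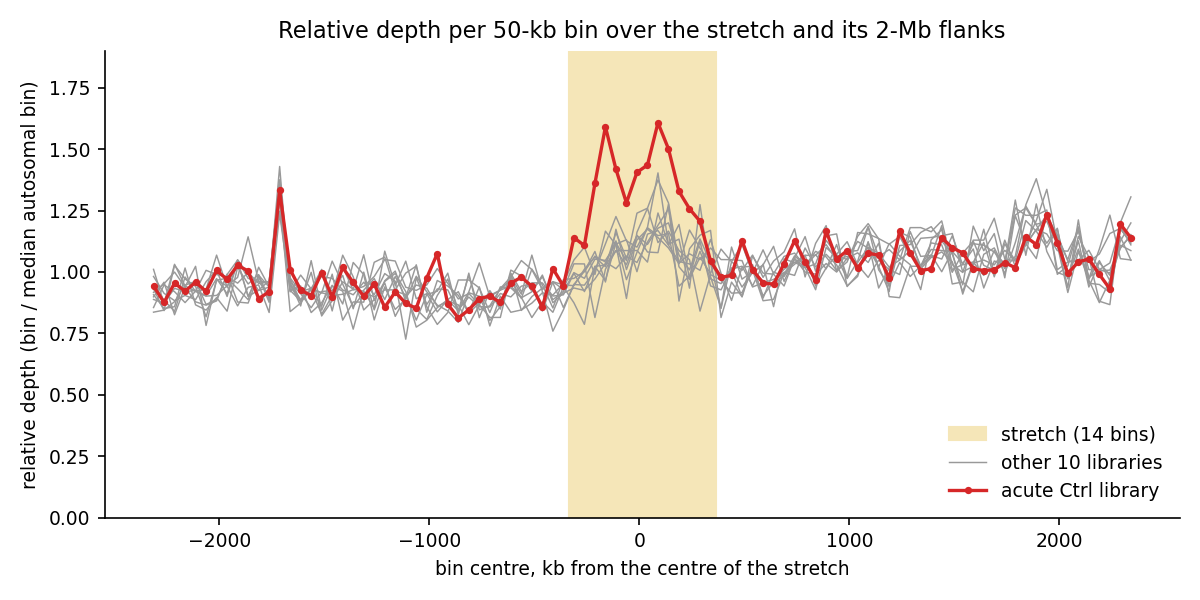
Relative depth per bin (vertical axis) against the distance of the bin centre from the centre of the stretch in kb (horizontal axis), for acute Ctrl (red) and the other 10 libraries (grey), with the 14 bins of the stretch shaded. The red line leaves the grey lines within the shaded bins, where it peaks at 1.59 and 1.61, and runs mostly among them in both flanks. It lies above all of them in 4 of 40 bins on the left and 3 of 40 on the right.

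The called bins formed a single unbroken run, the bins 3 to 12, from 98513637 to 99013993, with a mean log2 difference of 0.38. When a single raised segment was fitted to the bins of stretch and flanks by least squares, its edges fell at 98413565 and 99013993, a length of 600 kb over 12 bins, with a mean of 0.35 inside and 0.0093 outside. That segment holds all of Kcnk10, Spata7, Ptpn21, Zc3h14, Eml5 and Ttc8. The left edge of the fit was the same against each of the other references tried, and the right edge moved by a bin: it fell at 99064029 against the other 4 Ctrl libraries and at 98963958, inside Ttc8, against pre-treatment Ctrl alone. On the left, the called run starts 2 bins later than the fitted segment, inside Kcnk10, so these data do not settle how much of Kcnk10 is included. Inside the segment the bins had an SD of 0.11, and outside it 0.086, both near the SD of 0.0999 over all bins of the library.

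Gene by gene, each of the 5 genes and Kcnk10 were read more deeply in acute Ctrl than in any of the other 10 libraries, by similar amounts. A gene's value is the mean of its bins weighted by overlap. Since neighbouring genes share bins, they are not independent measurements. A log2 difference of 0.25 was reached by 0.285% of the 20672 protein-coding autosomal genes of ordinary depth, and a level above all other 10 libraries by 8.12% of them.

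Spata7 (98628157 to 98669815, plus strand) stood at 1.40 in acute Ctrl. In the other libraries its lowest relative depth was 1.02, its median 1.11 and its highest 1.21. The log2 difference was 0.34, a fold of 1.26. Ptpn21 (98676741 to 98737405, minus strand) stood at 1.33 in acute Ctrl, against 0.997, 1.08 and 1.12 for the lowest, median and highest of the other libraries. Its log2 difference of 0.30 was the smallest of the 5 genes, a fold of 1.23. Zc3h14 (98746964 to 98787753, plus strand) stood at 1.42 in acute Ctrl, with the other libraries between 1.06 and 1.25 around a median of 1.13. Its log2 difference was 0.33.

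Eml5 (98786805 to 98901484, minus strand), the longest of the 5 genes, stood at 1.53 in acute Ctrl, and the other libraries reached from 1.13 through a median of 1.16 to 1.32. Its log2 difference of 0.40, a fold of 1.32, ranked 1 of all 20672 genes in this library. Ttc8 (98920574 to 98983238, plus strand) stood at 1.31 in acute Ctrl, against 0.947, 1.05 and 1.13 for the lowest, median and highest of the others, a log2 difference of 0.32. Kcnk10 (98429437 to 98578310, minus strand) stood at 1.25, against 0.904, 0.998 and 1.06, a log2 difference of 0.32 as well. In none of these genes did acute Ctrl overlap the other libraries. By the same log2 difference Spata7 ranked 6, Zc3h14 7, Kcnk10 10, Ttc8 11 and Ptpn21 12 among all genes of acute Ctrl. These ranks come from the acute Ctrl values by which the stretch was chosen. Of the 59 genes at or above 0.25, 45 lay in a single bin, where noise is largest. The other 14 lay in more than 1 bin, and 8 of these 14 were outside the stretch.

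**Figure D3:**
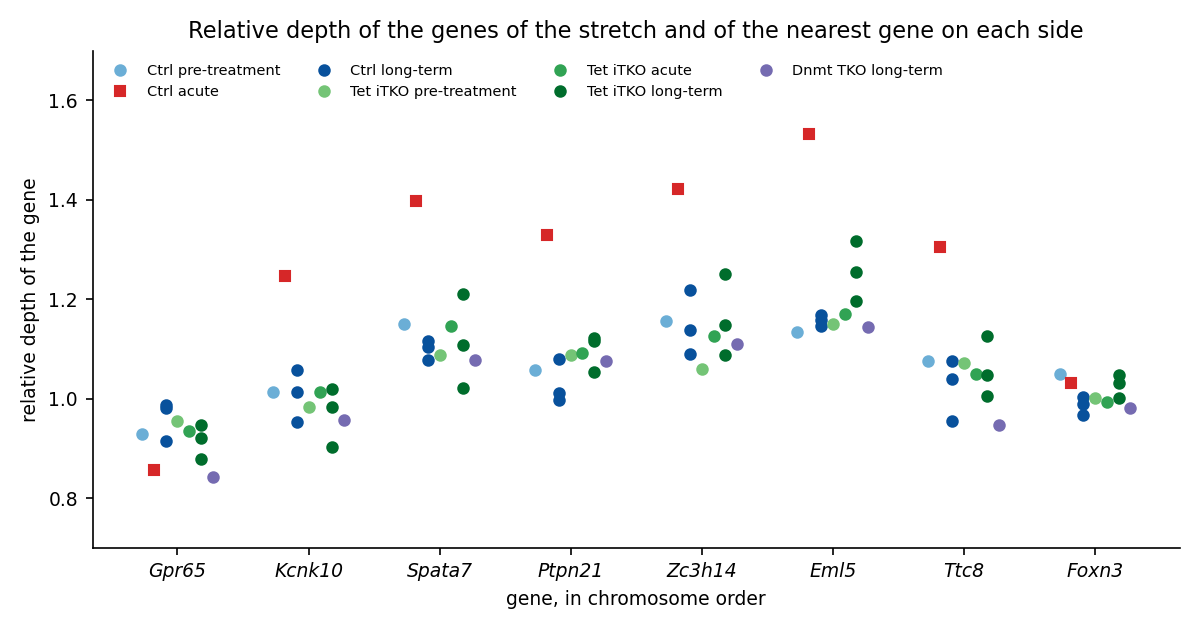
Relative depth (vertical axis, from 0.7) of the 6 genes of the stretch and of the nearest protein-coding gene on each side, in chromosome order, with a point per library coloured by group and acute Ctrl as red squares. The red squares stand apart from the other points from Kcnk10 to Ttc8, at 1.25 to 1.53, and among them for Gpr65 and Foxn3.

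None of the 15 protein-coding genes of the flanks reached 0.25, beside 0.285% of all genes, and their log2 differences ran from -0.12 to 0.11. The nearest gene on the left, Gpr65 (98268635 to 98276644), an acid-sensing receptor, stood at 0.857 in acute Ctrl and between 0.842 and 0.987 elsewhere. The nearest on the right, Foxn3 (99190078 to 99563582), a forkhead transcription factor, stood at 1.03 in acute Ctrl and between 0.967 and 1.05 elsewhere. Acute Ctrl lay inside the range of the other libraries for both.

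The partners of TTC8 in the BBSome are encoded on other chromosomes. None of the 7 listed (Bbs1, Bbs2, Bbs4, Bbs5, Bbs7, Bbs9 and Bbip1) reached 0.25 in acute Ctrl, beside 0.285% of all genes. Their log2 differences ran from -0.098 to 0.17, with Bbs7 the highest and a median of 0.0017, beside 0.0019 over all genes. Relatives of Eml5 (Eml1, Eml2, Eml3, Eml4 and Eml6) and of Ptpn21 (Ptpn3, Ptpn4, Ptpn13 and Ptpn14) gave 0 of 9 at 0.25. Their differences ran from -0.060 to 0.071, with a median of 0.023. At a share of 0.285% over all genes, a count of 0 in lists this short says nothing particular about them. Eml1 also lies on chromosome 12, outside the stretch and its flanks.

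Across the genome, acute Ctrl had 1 run of 3 or more adjacent bins at or above 0.25, and it was the run over Kcnk10 to Ttc8. It had 4 runs at or below -0.25, of 3 or 4 bins each, over Sntg1, Cyp2a5 and Cyp2a22, Nlrp1b, and the Duxbl cluster. Those over Nlrp1b and the Duxbl cluster were not particular to acute Ctrl. Pre-treatment Ctrl also had runs at or below -0.25 there, with means of -0.53 and -0.43. Over the Duxbl cluster, the long-term Ctrl libraries, which are part of the reference, had runs at or above 0.25, with means of 0.60 to 0.62. When the autosomes outside the stretch and its flanks were divided into 3392 windows of 14 bins, the log2 difference of acute Ctrl ran from -0.21 to 0.099, with an SD of 0.030, and 0.0% of them reached 0.25. The stretch, at 0.32, lay beyond that range, as its choice ensured.

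**Figure D4:**
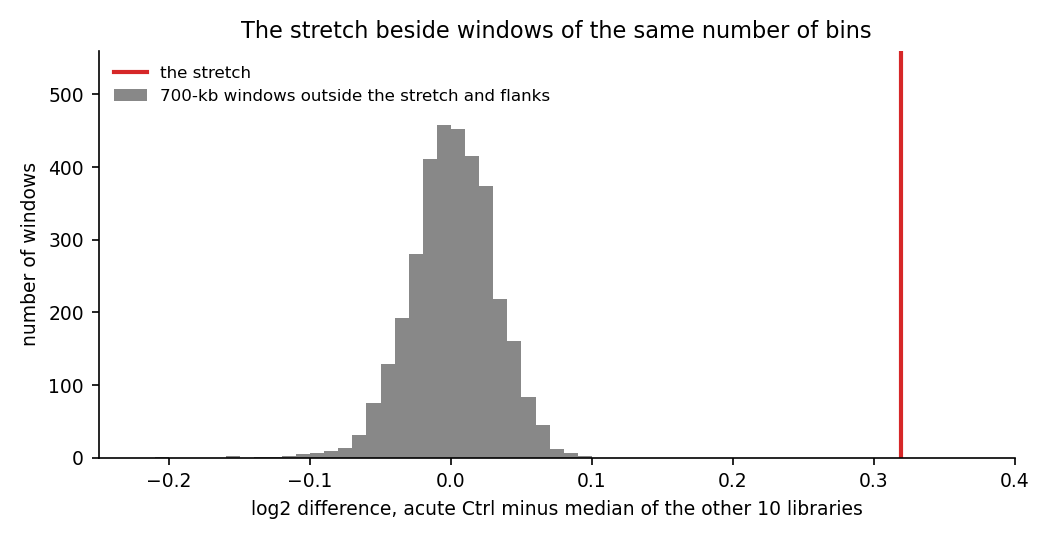
Number of windows of 14 bins (vertical axis) by the log2 difference of acute Ctrl from the median of the other 10 libraries (horizontal axis). The 3392 windows outside the stretch and its flanks reach 0.099 at most, and the red line marks the stretch at 0.32.

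In the other 10 libraries, each set against the median of its own other 10, single bins of the stretch passed the same threshold in 4 libraries. Long-term Tet iTKO library 2 had 1 of 14 bins at or above 0.25, beside 0.574% of all its bins, and the other 9 libraries had 0, beside 0.308% to 5.01% of all bins. At or below -0.25, long-term Ctrl library 2 had 1 bin, beside 1.23% of all its bins, and long-term Tet iTKO library 3 had 1, beside 1.13%. Dnmt TKO, the library with the largest spread over all bins (SD 0.196, against 0.0914 to 0.115 in the other libraries), had 2, beside 3.84% of all its bins. None of these bins formed a run of 3.

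Whether the higher depth came with tamoxifen was examined by setting the acute libraries against the pre-treatment libraries of the same genotype, with 1 library in each group and hence no test. In Ctrl the stretch stood at 1.08 before treatment and at 1.33 in the acute library, a log2 difference of 0.31 (1.24-fold). In Tet iTKO, which had received the same tamoxifen treatment, it stood at 1.07 before and 1.08 in the acute library, a difference of 0.019. The flanks differed by 0.039 on the left and -0.034 on the right in Ctrl, and by 0.017 and -0.014 in Tet iTKO. Before treatment the genotypes differed by -0.011 in the stretch (Tet iTKO minus Ctrl). A single population stands behind each value, so treatment, population and any difference in sorting cannot be told apart.

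Bin by bin, the 14 differences between acute and pre-treatment ran from 0.012 to 0.73 in Ctrl, with a median of 0.30. Of these, 10 reached 0.25, a level reached by 2.56% of all autosomal bins in that comparison. In Tet iTKO the 14 differences ran from -0.17 to 0.14 with a median of 0.065, and 0 reached 0.25, beside 3.54% of all bins. Among the genes, the difference in Ctrl was 0.28 for Spata7, 0.33 for Ptpn21, 0.30 for Zc3h14, 0.43 for Eml5, 0.28 for Ttc8 and 0.30 for Kcnk10. In Tet iTKO it was 0.075 for Spata7, 0.0063 for Ptpn21, 0.089 for Zc3h14, 0.023 for Eml5, -0.030 for Ttc8 and 0.045 for Kcnk10. Every gene had a larger difference in Ctrl, and the acute Ctrl value behind it is the value by which the stretch was chosen.

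**Figure D5:**
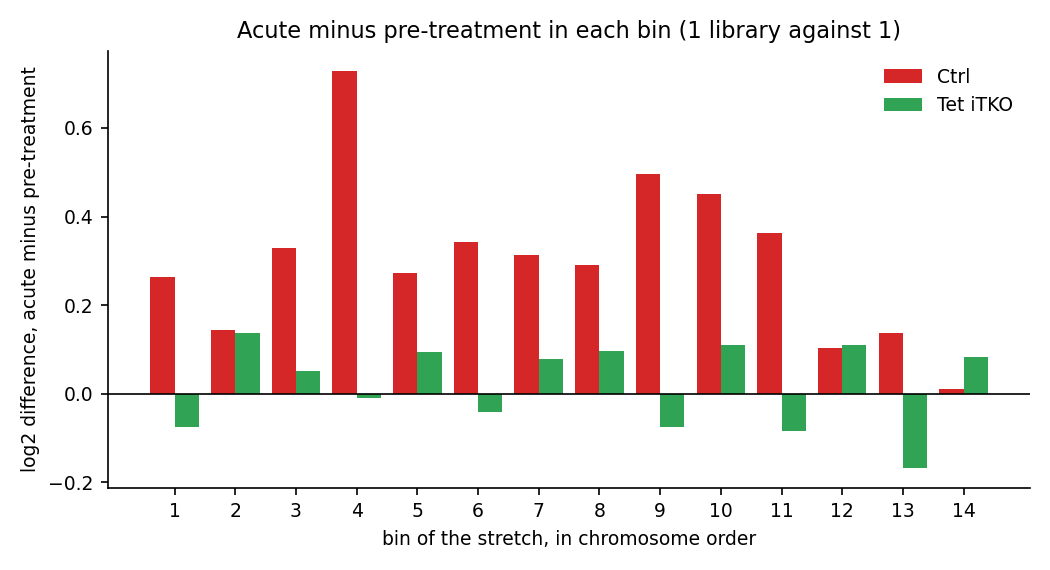
Log2 difference of relative depth between the acute and the pre-treatment library (vertical axis) in each of the 14 bins of the stretch in chromosome order (horizontal axis), for Ctrl (red) and Tet iTKO (green). The red bars lie between 0.012 and 0.73 and the green bars between -0.17 and 0.14.

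Long-term culture allowed the only replicated comparison, and the choice of the stretch did not use it. The 3 long-term Ctrl libraries, which descend from cells that had also received tamoxifen, stood at 1.06 ± 0.019 (SD, n = 3) in the stretch and the 3 long-term Tet iTKO libraries at 1.08 ± 0.021. The difference of 0.031 on the log2 scale (Tet iTKO minus Ctrl) did not pass the exact two-sided permutation test over libraries (p = 0.3, adjusted over stretch and flanks 0.45), in which 3 against 3 libraries cannot go below 0.1. In the left flank the difference was -0.013 (exact permutation p = 0.6), and in the right flank 0.013 (exact permutation p = 0.3). The labels do not say that replicates came from separate embryos or lines, so these p-values measure only the spread between these libraries.

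In the limma fit over all 47708 bins, 0 of the 14 bins of the stretch were called at an adjusted p under 0.05, beside 0.109% of all bins. At an unadjusted p under 0.05 there was 1 of 14, against 6.05% of all bins, and the smallest adjusted p of the stretch was 0.69. Of the 14 bins, 8 were higher in Tet iTKO, beside 23886 of all 47708 bins. Log2 differences of the 14 bins ran from -0.14 to 0.20, with a median of 0.019. The bin with the largest difference (98813851 to 98863886, inside Eml5) stood at 0.20 ± 0.074 (SE), with a limma adjusted p of 0.69.

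In the limma fit over 20672 genes, 0 of the 5 genes were called, beside 0.116% of all genes. Eml5 had the largest difference: it stood at 1.15, 1.17 and 1.16 in the long-term Ctrl libraries and at 1.20, 1.25 and 1.32 in the long-term Tet iTKO libraries. The groups did not overlap, which was so in this direction for 1 of the 5 genes and 7.98% of all genes. The log2 difference of Eml5 was 0.12 ± 0.053 (SE), with a limma adjusted p of 0.75. The differences of the other members were 0.091 for Ptpn21, 0.050 for Ttc8, 0.015 for Zc3h14 and 0.015 for Spata7, and Kcnk10 stood at -0.057. In each of these the 3 Ctrl and 3 Tet iTKO libraries overlapped.

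Dnmt TKO, with 1 library, stood at 1.06 in the stretch, inside the range of the 3 long-term Ctrl libraries (1.04 to 1.07), a log2 difference of 0.0066 from their mean. Its Ttc8 (0.947) was the lowest of the 11 libraries, and its Spata7 (1.08), Ptpn21 (1.08), Zc3h14 (1.11) and Eml5 (1.14) lay among the other libraries. Many genes lay lower in this library, where Ttc8 ranked 18699 from the highest of 20672 genes by its log2 difference from the others.

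The windows of 14 bins whose relative depth over the 11 libraries was most like that of the stretch were sought by Pearson correlation. They were a window of chromosome 19 with Smarca2 (26220005 to 26920235, r = 0.80), a window of chromosome 7 with Uqcrc2 and Eef2k (120380781 to 121080873, r = 0.79) and a window of chromosome 3 with Elf2 and Setd7 (50913748 to 51613904, r = 0.79). In these windows acute Ctrl exceeded the median of the others by 0.080, 0.042 and 0.057 on the log2 scale, and without that library the correlations fell to 0.11, 0.44 and 0.56. The likeness over 11 libraries rested in large part on acute Ctrl alone, and the points of a library share its depth and scaling.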

How the data were processed

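Single-end low-coverage whole-genome libraries (TruSeq PCR-free) had been sequenced by the authors, trimmed, mapped to mm10 with BWA-mem and freed of optical duplicates with Picard. The submitters' processing notes also name BSMAP 2.74v. The deposited files hold the mean coverage signal (depth) of 52958 bins of about 50 kb for each library, not scaled and not corrected for GC or mappability. The deposited log2 values equalled log2 of that depth to within 4.05e-05 and were not used further. Sums of bases in sparse bins were multiples of 50 in 95.4% of 3432 cases, so read numbers assume 50 bases per read, whereas the study's methods state a longer minimum length for mapped reads.

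Depth was divided by the library's median autosomal bin depth. Bins with a mean relative depth of 0.5 to 1.5 over the 11 libraries (47708 of 47924 autosomal bins) entered counts and fits. Genes were GENCODE M21 protein-coding genes, each given the overlap-weighted mean of its bins. Each library was compared with the median of the other 10 on the log2 scale, with a threshold of 0.25 and runs of 3 or more adjacent bins. Long-term Tet iTKO and Ctrl were compared by limma 3.58.1 (R 4.3.3; lmFit and eBayes on log2 of relative depth + 0.01, Benjamini-Hochberg over all bins or genes) and, for the stretch and flanks, by exact permutation tests. Tested on simulated data, the bin fit recovered 66% of 100 bins changed by 0.3 and 100% of 100 changed by 0.6. It also called 11 unchanged bins. The simulated libraries carried counting noise only, which is less than the spread between the real replicates. Python 3.11.15 with numpy 2.4.6, pandas 2.3.3, scipy 1.17.1 and statsmodels 0.14.6 did the rest.

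Groups came from the labels. Genes described are the 5 named genes, the other protein-coding gene of the stretch, the nearest gene on each side, and lists of BBSome partners and of Eml5 and Ptpn21 relatives; members, lists and tests were chosen with earlier results of these data known. Long-term replicates of a group differed beyond counting noise (chi-square per degree of freedom 1.01 to 1.15 over bins), so none were merged. Same-numbered long-term libraries did not deviate together (r = 0.0010, -0.0050 and 0.0019), so no pairing by number was used. Alternatives tried were GC correction by lowess (span 0.3), scaling by the mean, other references, thresholds, filters and pseudocounts, a replicate block and leaving out each library.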

Additional observations from a re-analysis of the deposited data

Results flagged for a closer look

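For Ttc8 the log2 difference between the acute and the pre-treatment library had opposite signs in Ctrl (0.28) and Tet iTKO (-0.030), a gap of 0.31. The Tet iTKO value is small beside the spread of Ttc8 over the other 10 libraries (SD 0.056 in relative depth), so a decrease there is not shown, and the Ctrl value rests on the acute Ctrl library by which the stretch was chosen. Eml5 (0.43 in Ctrl, 0.023 in Tet iTKO) and Ptpn21 (0.33 and 0.0063) had wider gaps with both values above 0. With 1 library behind each value, the difference between the genotypes was not tested.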

How the results depend on the processing

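The log2 difference of the stretch in acute Ctrl lay between 0.30 and 0.34 under GC correction, mean scaling, the median over bins, every overlapping bin and 3 other references, and the 5 genes stayed at or above 0.25 in all of their 30 alternatives (0.28 to 0.43). Choices made after seeing the data were the fitted segment, at 0.35, the depth of the stretch over its flanks, at 0.31, and a reference of 8 libraries without Dnmt TKO and long-term Tet iTKO library 2, under which 10 bins were again called. The number of gain runs in acute Ctrl became 2 at a threshold of 0.3, where a bin at 0.29 divides the run, and 2 with no filter on relative depth; the 4 loss runs became 2 at a threshold of 0.3, 0 when 5 or more adjacent bins were asked for, and 6 both at a threshold of 0.2 and with no filter. Ptpn21 stood at 0.36 against the other 4 Ctrl libraries.

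Long-term Tet iTKO minus Ctrl in the stretch kept its direction in all alternatives, with 0.016 to 0.046 when each library was left out. The exact permutation p was then between 0.1 and 0.6. It was lowest, at the smallest possible value of 0.1, without long-term Tet iTKO library 1. With the replicate block the exact sign-flip p was 0.5, where 3 pairs cannot go below 0.25. The block gave 66 called bins and 21 called genes in all, against 52 and 24 as reported, and changed no call in the stretch. Leaving out each library gave 36 to 98 called bins in all (98 without long-term Tet iTKO library 3) and 16 to 21 called genes, and dropping the filter gave 37 genes; in each of these 0 bins and 0 genes of the stretch were called. Single genes of the stretch moved about 0 when a library was left out: Zc3h14 lay between -0.039 and 0.061 and Spata7 between -0.047 and 0.075. Zc3h14 turned to -0.022 without long-term Ctrl library 1 and -0.039 without long-term Tet iTKO library 3, and Spata7 to -0.047 without long-term Tet iTKO library 2. Dnmt TKO minus long-term Ctrl became -0.0090 with mean scaling and 0.040 with the median over bins, and acute minus pre-treatment Ctrl in the right flank became -0.064 with the median over bins; the cause was not tested. At this depth, edges finer than a 50-kb bin cannot be read. Whether a gain of copies lies behind the level of the stretch was not tested. A copy number and the share of cells carrying it cannot be read from these data either.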
